A study of Mus musculus with 6 samples.

Results

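Interferon-stimulated genes are the genes that cells switch on when interferons bind their receptors, and they were examined here in mammary epithelial cells (MECs). The list held 41 genes, chosen by name as interferon-induced genes and their regulators, out of 55487 genes in the count table. Of the 41 genes, 40 had enough counts to be tested, among 17165 tested genes, and the last, Oas1a, was listed at 0 counts in all 6 mice. MECs came from 10-week-old female BALB/c mice, 3 wild-type and 3 IL-21isoTg, with 1 library per mouse. IL-21isoTg mice carry a transgene for a membrane-bound isoform of IL-21 that is expressed in T cells. The promoter of the transgene is not given in the sources used here. According to the methods of the study the mice were virgin females with randomized estrous stages, and MECs were what remained after antibodies to CD45, CD31 and CD140a had taken out leukocytes, endothelial cells and fibroblasts.

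Type I interferons (IFN-α and IFN-β) and type III interferons (IFN-λ) act through the kinases JAK1 and TYK2 and a complex that includes STAT2 and IRF9 and binds the interferon-stimulated response element (ISRE). Type II interferon (IFN-γ) acts at the gamma-activated site (GAS) and induces IRF1 and the immunity-related GTPases and guanylate-binding proteins. The induced proteins sense viral RNA, block translation or degrade RNA, or amplify the interferon signal itself. Epithelial cells are known to respond to all 3 types of interferon.

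The promoters that carry these elements are shown first, because they are a property of the genes that the choice of the list did not use. Promoters of 300 bases, from 250 before to 50 after the annotated start, were available from RefSeq (build GRCm38.p6) for 30 of the 41 genes. The ISRE core was searched as GAAA repeated after 2 free bases and the GAS as TTCNNNGAA, on both strands. At least 1 promoter with the ISRE core was found for 16 of the 30 genes (53.3%), against 3.99% of the 27025 genes with a promoter in the table. The GAS was found for 10 of the 30 genes (33.3%), against 9.55% of all genes. In 5 genes both motifs occurred, in 9 genes neither did, and the matches overlapped each other in 1 gene, Bst2. All 5 GTPase genes with a promoter (Gbp2, Gbp3, Gbp7, Igtp and Irgm1) held the ISRE core, against 1 of the 5 transcription factor genes, Stat2. A match is a run of letters and not a measured binding site. The first listed promoter of each of 6 genes is given below 5′ to 3′ on the strand of the gene, chosen because the results turn on them, with ISRE and GAS matches in capitals.
Isg15, chr4:156200769-156201068, minus strand: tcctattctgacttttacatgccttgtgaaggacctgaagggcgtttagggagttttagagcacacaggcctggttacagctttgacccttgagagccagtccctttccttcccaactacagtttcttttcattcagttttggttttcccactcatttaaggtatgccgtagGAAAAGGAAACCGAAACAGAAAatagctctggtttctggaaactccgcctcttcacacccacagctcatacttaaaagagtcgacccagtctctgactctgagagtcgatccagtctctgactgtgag
Ifit1, chr19:34640639-34640938, plus strand: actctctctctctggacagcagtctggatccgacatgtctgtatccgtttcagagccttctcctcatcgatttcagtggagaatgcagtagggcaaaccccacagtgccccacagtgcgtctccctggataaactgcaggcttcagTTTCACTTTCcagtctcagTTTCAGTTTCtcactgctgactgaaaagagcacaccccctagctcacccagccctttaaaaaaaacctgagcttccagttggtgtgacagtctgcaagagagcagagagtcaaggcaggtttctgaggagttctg
Rsad2, chr12:26456403-26456702, minus strand: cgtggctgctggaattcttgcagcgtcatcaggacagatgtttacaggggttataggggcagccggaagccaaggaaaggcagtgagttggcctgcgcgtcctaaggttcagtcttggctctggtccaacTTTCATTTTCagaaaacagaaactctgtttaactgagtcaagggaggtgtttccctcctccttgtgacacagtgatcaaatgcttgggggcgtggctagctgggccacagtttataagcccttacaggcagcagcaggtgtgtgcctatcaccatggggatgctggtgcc
Oasl1, chr5:114922990-114923289, plus strand: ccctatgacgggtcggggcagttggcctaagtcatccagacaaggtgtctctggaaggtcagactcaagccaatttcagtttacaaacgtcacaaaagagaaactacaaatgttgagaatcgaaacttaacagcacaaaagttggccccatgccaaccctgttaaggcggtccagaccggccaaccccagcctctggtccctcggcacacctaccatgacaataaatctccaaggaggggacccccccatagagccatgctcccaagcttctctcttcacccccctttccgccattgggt
Igtp, chr11:58199306-58199605, plus strand: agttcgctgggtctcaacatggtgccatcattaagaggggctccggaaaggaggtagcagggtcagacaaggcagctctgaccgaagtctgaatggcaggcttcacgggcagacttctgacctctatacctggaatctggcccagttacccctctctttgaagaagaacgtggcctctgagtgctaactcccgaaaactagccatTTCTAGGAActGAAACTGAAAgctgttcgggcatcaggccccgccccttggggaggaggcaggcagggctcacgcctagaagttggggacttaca
Irf1, chr11:53769764-53770063, plus strand: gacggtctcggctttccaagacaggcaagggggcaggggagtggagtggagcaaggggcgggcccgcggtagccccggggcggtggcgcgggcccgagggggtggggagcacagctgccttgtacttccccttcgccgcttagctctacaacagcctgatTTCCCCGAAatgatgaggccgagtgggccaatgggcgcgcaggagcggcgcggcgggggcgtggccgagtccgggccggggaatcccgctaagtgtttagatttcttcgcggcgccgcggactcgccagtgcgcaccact
In Isg15 the capitals are 3 overlapping ISRE cores, the first starting 78 bases before the annotated start. Ifit1 held 2 cores on the opposite strand and Rsad2 held 1. Oasl1 had no match to either motif in this window. In Igtp a GAS lay just before an ISRE core, and Irf1 held a GAS 90 to 82 bases before the start and no ISRE core.

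The libraries held 15902886 to 25719244 counts. Counts of Il21, the gene behind the genotype, were 0, 0 and 37 in wild-type mice 1 to 3 and 795, 216 and 131 in IL-21isoTg mice 1 to 3, so the library labelled wild-type 3 was not free of Il21. Epithelial markers were abundant in every mouse, with summed levels of 5755 to 9400 CPM (counts scaled to library size with TMM) for 10 luminal genes and 1372 to 2785 CPM for 7 basal genes. A list of 8 milk protein genes summed to 538, 523 and 1733 CPM in wild-type mice 1 to 3. In IL-21isoTg mice 1 to 3 it summed to 20366, 15762 and 8818 CPM, so wild-type mouse 3 was the highest wild-type mouse here too. Markers of the removed cells were still counted. The sum over 9 fibroblast markers was 2022 to 3572 CPM in wild-type and 4453 to 5128 CPM in IL-21isoTg mice. Most of the fibroblast sum came from collagens. Means of Col1a1, Col1a2 and Col3a1 were 572, 589 and 806 CPM in wild-type and 1163, 1059 and 1528 CPM in IL-21isoTg mice. Genotypes overlapped for Pdgfra, which encodes CD140a (15.8, 40.2 and 48.5 against 60.4, 50.5 and 43.7 CPM). Only Dcn had a lower mean in IL-21isoTg mice (612 against 738 CPM). For 6 endothelial markers the sum was 58.2 to 152 and 98.6 to 259.6 CPM. The 12 macrophage markers summed to 170.1 to 233 and 150.1 to 371 CPM and 1 of 7 dendritic cell markers passed the filter. The 8 T cell markers summed to 22.5 to 26.3 CPM in wild-type and 35.9 to 42 CPM in IL-21isoTg mice, but Thy1 carried this separation. Without Thy1 the other 7 summed to 10.7, 6.29 and 9.43 CPM against 11, 10.8 and 9.70 CPM and overlapped. Of these, Cd3e (1.74 against 3.47 CPM), Cd3d (0.363 against 0.761 CPM), Cd4 and Lck had higher means in IL-21isoTg mice. The means of Cd3g, Cd8a and Trac were lower there. No marker of these lists was at 0 in all mice. A list of 15 salivary gland genes took 22.9%, 6.64% and 15.7% of the counts in wild-type mice and 22.5%, 4.95% and 40.9% in IL-21isoTg mice, so the library of IL-21isoTg mouse 3 stood apart. In such bulk samples, fewer cells of a type and less RNA per cell cannot be told apart.

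Whether interferon-stimulated genes differed between the genotypes was asked with edgeR's quasi-likelihood test on the counts, with adjustment over all genes tested, and log2 fold changes below are given ± their standard error (SE) from that fit. No gene of the 40 reached an adjusted p under 0.05, with values from 0.809 to 0.997. Over all 17165 genes 0 passed as well (0% called). An unadjusted p under 0.05 was found for 0 of the 40 genes, against 5.82% of all genes tested. DESeq2 also called 0 of the 40 genes, while it called 0.419% of all genes higher and 0.0524% lower. The likelihood ratio test of edgeR called 0 of the 40 genes, beside 0.303% of all genes higher and 0.0757% lower, and limma-voom called 0. At an unadjusted p under 0.05 these tools gave 1, 0 and 1 of the 40 genes, against 6.93%, 5.89% and 5.59% of all genes. The log2 fold change of IL-21isoTg against wild-type was above 0 for 18 of the 40 genes (45%, against 47.9% of all genes), with a median of -0.06 beside -0.02 over all genes. Levels of the 2 genotypes did not overlap in 3 genes (7.5%), against 12.1% of all genes tested. These were Irf1 and Ifit2, higher in IL-21isoTg mice (5.54% of all genes), and Adar, lower (6.54% of all genes).

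The spread between mice of the same genotype was larger than the difference between genotypes for most of the genes. On the log2 CPM scale the median SD among wild-type mice was 0.45 for the 40 genes and 0.31 for all genes tested, whereas among IL-21isoTg mice it was 0.31 for both. The range among wild-type mice exceeded the difference of the genotype means in 37 of the 40 genes (92.5%, against 82.3% of all genes). Wild-type mouse 1 held the highest level of the 6 mice in 25 of the 40 genes (62.5%, against 24.7% of all genes), and IL-21isoTg mouse 3 in 10 (25%, against 21.6%). In wild-type mouse 1, 14 of the 40 genes (35%) were at least 2-fold above the mean of the other 2 wild-type mice, against 7.37% of all genes. In IL-21isoTg mouse 3, 7 genes (17.5%) were at least 2-fold above the other 2 IL-21isoTg mice, against 7.57%. The same count was 0 in wild-type mouse 2 (5.13% of all genes), 0 in wild-type mouse 3 (2.66%), 0 in IL-21isoTg mouse 1 (4.41%) and 1 in IL-21isoTg mouse 2 (3.87%). Wild-type mouse 1 was the lowest of the 6 mice in 2 genes, Irf1 and Iigp1 (5%, against 24.2% of all genes), and IL-21isoTg mouse 1 in 14 (35%, against 15.5%). With a single library on one side these are descriptions of the libraries and carry no test, and the comparison was chosen after the values were seen.

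**Figure D1:**
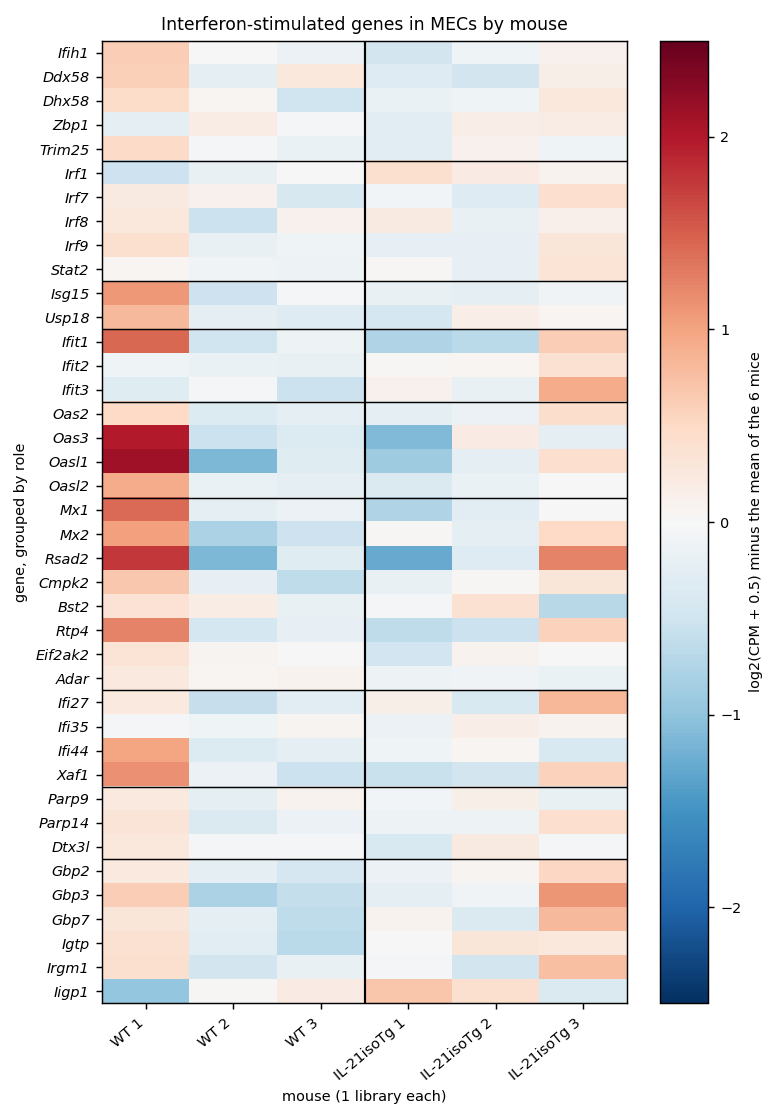
Level of the 40 tested interferon-stimulated genes (rows, grouped by role) in the 6 mice (columns), as log2(CPM + 0.5) minus the mean of the 6 mice. Wild-type mouse 1 is the highest of the 6 mice in 25 of the 40 genes, with its highest values in Oas3, Oasl1 and Rsad2, while Irf1 and Iigp1 are low there.

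**Figure D2:**
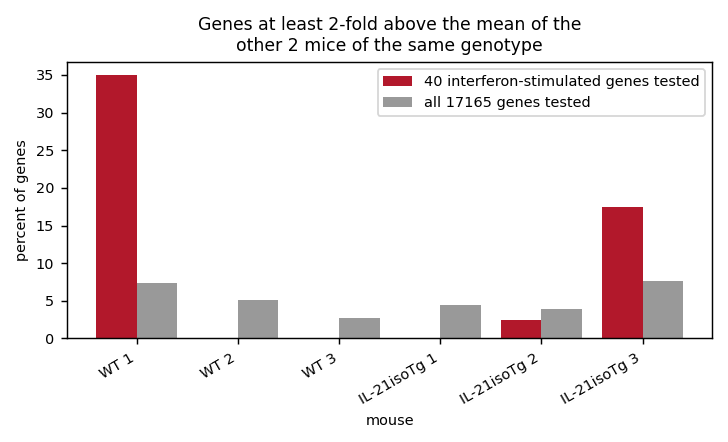
Percent of the 40 tested interferon-stimulated genes (red) and of all 17165 genes tested (grey) that lay at least 2-fold above the mean of the other 2 mice of the same genotype, for each mouse. The red bar reaches 35% in wild-type mouse 1 and 17.5% in IL-21isoTg mouse 3, and 0 to 2.5% in the other mice.

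The OAS family makes or resembles the enzymes that synthesize 2′-5′ oligoadenylate, the activator of RNase L. Oasl1 (chromosome 5 of GRCm38, 114923240 to 114937915, plus strand), an inhibitor of Irf7 translation in mice, had 102, 10.3 and 18.8 CPM in wild-type mice 1 to 3 and 12.3, 19.7 and 31.3 CPM in IL-21isoTg mice 1 to 3. Wild-type mouse 1 was thus 7.02-fold above the mean of the other wild-type mice, which put Oasl1 at rank 63 of 17165 genes by this ratio. The genotypes overlapped, with a log2 fold change of -1.06 ± 0.78 SE (adjusted p = 0.829), and without wild-type mouse 1 it was 0.54 ± 0.44 SE (adjusted p = 0.791). Oas3, a synthetase active on long RNA duplexes, rested on 146, 15 and 20 counts in wild-type and 8, 42 and 11 counts in IL-21isoTg mice. At 6.58 CPM it was 8.13-fold above the mean of wild-type mice 2 and 3, rank 43 of all genes. Oasl2 had 45 CPM in wild-type mouse 1 and 18 to 23 CPM in the other 5 mice. Oas2 was 10.8 CPM in wild-type mouse 1 and 10.4 CPM in IL-21isoTg mouse 3, with 5.77 to 6.74 CPM elsewhere. Oas1a, a synthetase gene on chromosome 5 (120896256 to 120907521), shares 40.9% of its 100-base transcript stretches with other genes, most with Oas1g, which was also listed at 0 in every mouse. How the counting treated reads that match several genes is not given in the sources used here, so these zeros do not show that the genes were silent.

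Among the other antiviral effectors, Rsad2, which encodes viperin, an enzyme that makes a chain-terminating nucleotide, had 44.7, 5.62 and 10.3 CPM in wild-type mice 1 to 3 and 5.07, 10.2 and 30.9 CPM in IL-21isoTg mice 1 to 3. High and low mice occurred in both genotypes, and the log2 fold change was -0.41 ± 0.85 SE (adjusted p = 0.942). Its neighbour on chromosome 12, Cmpk2, a mitochondrial nucleotide kinase, had 13.6 CPM in wild-type mouse 1 and 5.22 to 10.4 CPM in the others. Mx1 and Mx2 encode dynamin-like GTPases that block viral replication, and many inbred strains carry defective Mx1 alleles. Mx1 was 5.50 CPM in wild-type mouse 1 and 0.832 to 1.77 CPM in the other 5 mice. Mx2 was 19.4 CPM in wild-type mouse 1, 13.3 CPM in IL-21isoTg mouse 3 and 5.09 to 9.40 CPM in the rest. Rtp4, a chaperone that also restrains viral replication, was 44.4 CPM in wild-type mouse 1, 27.5 CPM in IL-21isoTg mouse 3 and 11.6 to 15.8 CPM in the rest. Wild-type mouse 1 stood out less in Bst2 (tetherin, which holds virus particles at the cell surface), with 44.9, 39.9 and 30.9 CPM in wild-type and 33.8, 45.8 and 21.6 CPM in IL-21isoTg mice. Bst2 was highest in IL-21isoTg mouse 2 and lowest in IL-21isoTg mouse 3. The pattern was also weaker in the translation-blocking kinase Eif2ak2 (PKR), at 23 CPM in wild-type mouse 1 and 12.8 to 19.2 CPM in the others. Adar, the adenosine deaminase that edits RNA duplexes, had 50.8, 44 and 45.5 CPM in wild-type and 39, 40.1 and 38.1 CPM in IL-21isoTg mice. All 3 IL-21isoTg mice lay below all wild-type mice, and the log2 fold change was -0.26 ± 0.14 SE (adjusted p = 0.809). Exons of Chrnb2 on the opposite strand cover 16.8% of the Adar exons. Although the kit kept the strand, the sources used here do not say if the counting did.

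Of the IFIT family, which binds viral RNA lacking a proper cap, Ifit1 had 50.4, 12.9 and 16.8 CPM in wild-type and 10.8, 11.4 and 28.3 CPM in IL-21isoTg mice. Wild-type mouse 1 and IL-21isoTg mouse 3 were again the highest of their genotypes, and the log2 fold change was -0.68 ± 0.58 SE (adjusted p = 0.845). Ifit2, also on chromosome 19, had 7.71, 7.40 and 7.29 CPM in wild-type and 8.52, 8.67 and 11 CPM in IL-21isoTg mice, without a raised wild-type mouse 1. Here every IL-21isoTg mouse lay above every wild-type mouse, with a log2 fold change of 0.33 ± 0.22 SE (adjusted p = 0.82). Ifit3 had 3.25, 4.04 and 2.70 CPM in wild-type and 4.49, 3.54 and 8.30 CPM in IL-21isoTg mice. Its log2 fold change was the largest positive one of the 40 genes (0.69 ± 0.39 SE, adjusted p = 0.809). Ifit3 shares 31.7% of its 100-base stretches with other genes, most with Ifit3b, so its counts are uncertain. In the ISG15 system, Isg15, a ubiquitin-like protein attached to other proteins, had 23.6, 7.50 and 10.6 CPM in wild-type and 9.52, 9.08 and 10.3 CPM in IL-21isoTg mice. Only wild-type mouse 1 stood out, and the log2 fold change of -0.53 ± 0.40 SE (adjusted p = 0.832) became 0.10 ± 0.24 SE (adjusted p = 0.937) without it. Usp18, the protease that removes ISG15 and dampens the type I receptor, was 12.5 CPM in wild-type mouse 1 and 4.99 to 7.85 CPM in the others.

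**Figure D3:**
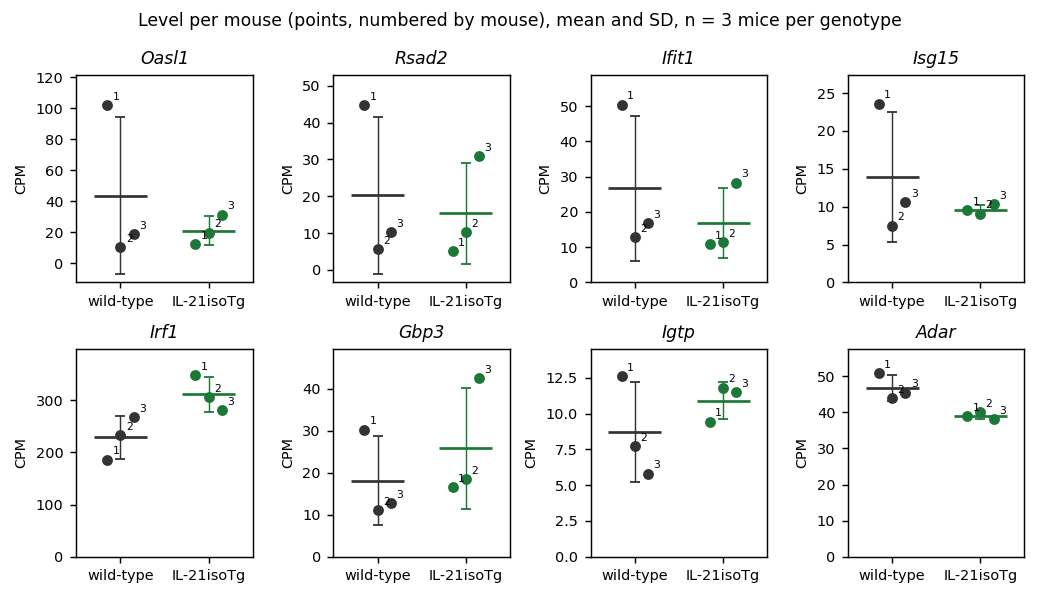
CPM of 8 genes in each mouse (points, numbered by mouse), with the mean (bar) and SD (whiskers) of 3 mice per genotype. Wild-type mouse 1 is the highest point for Oasl1, Rsad2, Ifit1 and Isg15 and the lowest for Irf1, where the genotypes do not overlap.

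The transcription factors varied less with wild-type mouse 1, which was a median 1.28-fold above the other wild-type mice over these 5 genes and 1.59-fold over the 40 genes. Irf1 (chromosome 11 of GRCm38, 53770014 to 53778374, plus strand), an activator induced most strongly by IFN-γ, had 186, 233 and 268 CPM in wild-type and 348, 306 and 281 CPM in IL-21isoTg mice. No IL-21isoTg mouse was as low as any wild-type mouse (exact two-sided permutation test over mice, p = 0.1, which is the lowest that 3 against 3 can give). Its mean was 229 ± 41.5 CPM (SD, n = 3) in wild-type mice, and in IL-21isoTg mice it was 312 ± 33.6 CPM (SD, n = 3). The log2 fold change was 0.45 with a standard error of 0.19, at an unadjusted p of 0.0503 and an adjusted p of 0.809 from edgeR's quasi-likelihood test. It was the smallest unadjusted p of the 40 genes, and leaving out each mouse in turn gave log2 fold changes of 0.33 to 0.57 with adjusted p-values of 0.60 to 0.994. Stat2 and Irf9, both parts of the ISRE-binding complex, were 35.4 to 51.9 CPM and 43.1 to 66.1 CPM over the 6 mice. Irf7, which amplifies type I interferon production, was 15.1 to 27.1 CPM, and Irf8, best known in myeloid and B cells, was 4.37 to 7.98 CPM. Log2 fold changes of these 4 genes were -0.08 to 0.13. Among the sensors of viral RNA in the cytosol, Ddx58 (RIG-I) had 67.8, 37.5 and 53.6 CPM in wild-type and 35.4, 32.3 and 49 CPM in IL-21isoTg mice. Ifih1 (MDA5) had 67, 42.9 and 39.2 CPM in wild-type and 31.2, 40.3 and 46.4 CPM in IL-21isoTg mice. Both were highest in wild-type mouse 1. Their log2 fold changes were -0.45 ± 0.25 SE (adjusted p = 0.809) and -0.34 ± 0.25 SE (adjusted p = 0.829). Trim25, a ubiquitin ligase acting on RIG-I, had 85.3, 58.8 and 54.6 CPM in wild-type and 49.8, 66.1 and 56.9 CPM in IL-21isoTg mice. Dhx58 (LGP2), a regulator of both RNA sensors, and Zbp1, a sensor of Z-form nucleic acid, were low at 4.09 to 8.43 CPM and 4.95 to 7.01 CPM.

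The interferon-γ-induced GTPases attack vacuoles that hold pathogens, and all 6 had a log2 fold change above 0, between 0.21 and 0.51, although none passed the test (adjusted p = 0.83 to 0.928). Without IL-21isoTg mouse 3, 4 of the 6 were above 0 and their median fell from 0.36 to 0.06, with a lowest value of -0.19. Gbp3, a guanylate-binding protein, had 30.2, 11.1 and 12.8 CPM in wild-type and 16.5, 18.5 and 42.4 CPM in IL-21isoTg mice. Gbp2 had 26.9, 19 and 16.8 CPM in wild-type and 20.6, 23.9 and 32.7 CPM in IL-21isoTg mice. For both genes wild-type mouse 1 lay among the IL-21isoTg mice, whereas wild-type mice 2 and 3 lay below all of them. Igtp, an immunity-related GTPase, had 12.6, 7.74 and 5.80 CPM in wild-type and 9.44, 11.8 and 11.5 CPM in IL-21isoTg mice, with wild-type mouse 1 above all others. Gbp7 and Irgm1, of these same families, were 9 to 25.1 CPM and 18.6 to 43.7 CPM, highest in IL-21isoTg mouse 3. Iigp1, an effector GTPase of the same kind, had 15.5, 31.4 and 35.3 CPM in wild-type and 49.9, 40.8 and 23.8 CPM in IL-21isoTg mice, so here the mice that were high elsewhere, wild-type mouse 1 and IL-21isoTg mouse 3, were the lowest. In the PARP9 group, Parp9 had 43.3, 31.3 and 38.8 CPM in wild-type and 35.2, 40.8 and 32.4 CPM in IL-21isoTg mice. Its partner ubiquitin ligase Dtx3l, which shares 458 bases of exon with it on the opposite strand, had 41.2, 33.4 and 33.3 CPM in wild-type and 26.2, 40 and 33.4 CPM in IL-21isoTg mice. Genotypes overlapped for both. Parp14, an ADP-ribosyltransferase, was 30.7 to 52.7 CPM, and the log2 fold changes of these 3 genes were -0.11 to 0.11. Of the remaining interferon-induced proteins, Xaf1, a cell death promoter, was 18 CPM in wild-type mouse 1, 12 CPM in IL-21isoTg mouse 3 and 5.20 to 7.06 CPM in the rest. Ifi44 was 13.9 CPM in wild-type mouse 1 and 5.13 to 7.11 CPM in the others. Ifi35 was even, at 21.6 to 27.1 CPM. Ifi27, a small membrane protein, had 121, 68.9 and 85.6 CPM in wild-type and 113, 78.4 and 182 CPM in IL-21isoTg mice. Scaled per kilobase of exon, Ifi27 and Irf1 were the most abundant of the 41 genes with mean levels of 73.7 and 68 CPM per kilobase over the 6 mice, followed by Bst2 with 40, and Oas3 was the lowest of the 40 tested genes with 0.262.

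Because wild-type mouse 1 was high in many of these genes, the comparison was repeated without it. The mouse was chosen on these same genes, so a shift upward was in part fixed in advance. For the same reason the shares over all genes are not a matched background here. Without wild-type mouse 1, 33 of the 40 genes had a log2 fold change above 0 (82.5%, against 51.3% of all 17667 genes tested). Their median was 0.23, beside 0.01 over all genes. Levels did not overlap in 9 genes that were higher in IL-21isoTg mice (22.5%, against 11.5% of all genes) and in 1 gene that was lower (2.5%, against 14.5%). Again 0 of the 40 genes had an adjusted p under 0.05 (0% of all genes called). An unadjusted p under 0.05 was found for 3 genes (7.5%, against 6.93% of all genes): Igtp with a log2 fold change of 0.70 (adjusted p = 0.708), Mx2 with 0.84 (adjusted p = 0.708) and Gbp3 with 1.12 (adjusted p = 0.711). The median of the 6 GTPases moved from 0.36 to 0.62 and that of the 4 OAS genes from -0.77 to 0.33. Leaving out IL-21isoTg mouse 3 instead gave the opposite shift, with 12 of the 40 genes above 0, a median of -0.19 over all 40, and a median of 0.06 for the GTPases. This was not particular to that mouse. The median over the 40 genes was -0.16 without wild-type mouse 2 (14 above 0) and -0.21 without wild-type mouse 3 (15 above 0). Without IL-21isoTg mouse 1 or 2 it was 0.02 and -0.01. The sign of the genotype difference over these genes therefore depended on which mouse was left out.

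**Figure D4:**
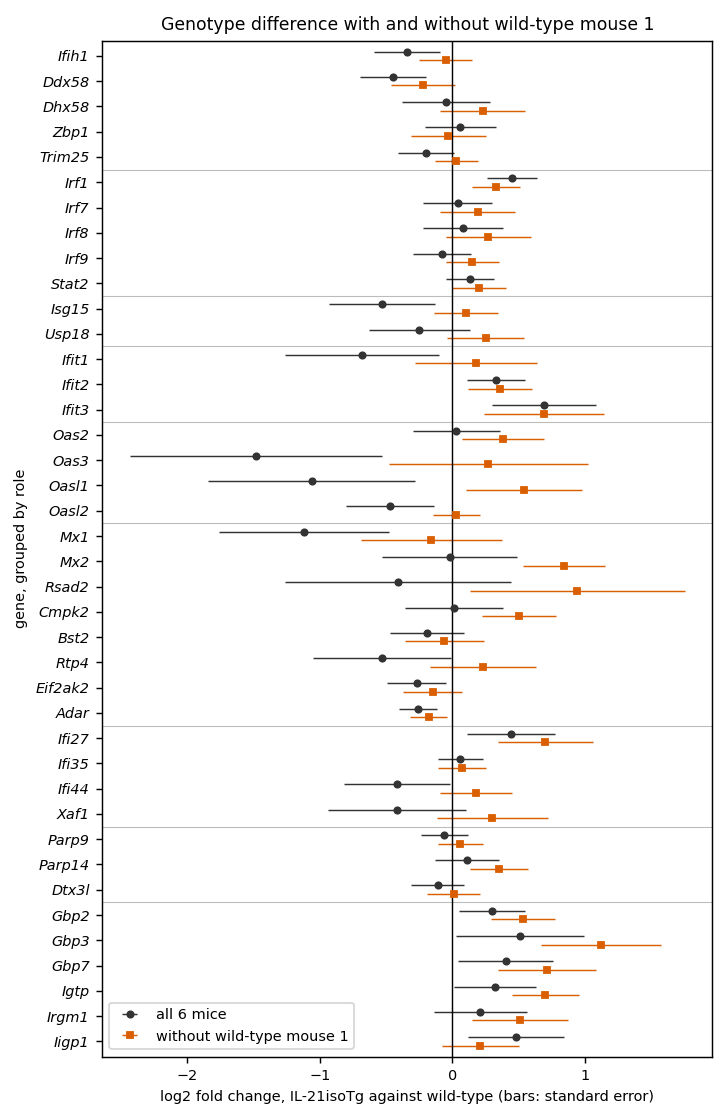
Log2 fold change of IL-21isoTg against wild-type MECs for the 40 tested genes (rows, grouped by role), with all 6 mice (circles) and without wild-type mouse 1 (squares), and bars of 1 standard error. The circles lie above 0 for 18 genes and the squares for 33, and 0 genes passed an adjusted p of 0.05 in either fit.

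Markers of other cells were set beside this pattern. The 6 leukocyte markers summed to 106 CPM in wild-type mouse 1, 189 CPM in IL-21isoTg mouse 3 and 83.5 to 115 CPM in the rest, with Lcp1 alone at 85.7 CPM in wild-type mouse 1 and 166 CPM in IL-21isoTg mouse 3. Ptprc, which encodes CD45, was 6.54, 2.16 and 9.40 CPM in wild-type and 3.78, 5.84 and 9.14 CPM in IL-21isoTg mice. The 12 macrophage markers were lowest in sum in wild-type mouse 1 (170.1 CPM) and IL-21isoTg mouse 3 (150.1 CPM), but this order came from Cd14 alone, at 141 and 125 CPM. Without Cd14 the sum of the other 11 ran the other way, with 29.1 CPM in wild-type mouse 1, 25.1 CPM in IL-21isoTg mouse 3 and 19.4 to 21.8 CPM in the rest. Csf1r (13.6 CPM) and Cd68 (6.22 CPM) were highest in wild-type mouse 1, and Adgre1 (2.42 CPM, against 0 to 0.225 CPM elsewhere), C1qa and C1qc were highest in IL-21isoTg mouse 3. Single markers differed, as Cd163 (0.466 CPM) and Lyz2 (2.14 CPM) were lowest in IL-21isoTg mouse 3. Cd163 was next lowest in wild-type mouse 1 (0.857 CPM). Wild-type mouse 1 also had the highest sums of the 6 B and plasma cell markers (11.7 CPM, against 2.93 to 8 CPM) and of the 7 dendritic cell markers (10.3 CPM, against 5.62 to 8.07 CPM). Zbtb46 alone made up 8.84 CPM of that dendritic cell sum. Without Lcp1 the other 5 leukocyte markers summed to 20.6, 6.86 and 22.8 CPM in wild-type and 11, 14.9 and 22.9 CPM in IL-21isoTg mice. Wild-type mouse 3 lay above wild-type mouse 1 in Ptprc and in this last sum, so only some immune markers were highest in wild-type mouse 1. Wild-type mouse 1 and IL-21isoTg mouse 3 also had the highest shares of salivary gland counts, although IL-21isoTg mouse 1, where 14 of the 40 genes were at their lowest, had nearly the share of wild-type mouse 1. The part of these values in the pattern was not tested. Among the 29 tested genes with a promoter, wild-type mouse 1 was a median 1.67-fold above the other wild-type mice for the 15 with an ISRE core and 1.43-fold for the 14 without, beside 1.02 and 0.995 over all genes.

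The rest of the interferon pathway was followed in a further list of 85 genes, of which 66 were tested. No gene of the 66 reached an adjusted p under 0.05 (0.809 to 0.999), and 2 had an unadjusted p under 0.05, Cxcl9 and Gbp4 (3.03%, against 5.82% of all genes). A log2 fold change above 0 was found for 45 (68.2%, against 47.9% of all genes). Among the ligands, Ifnb1, the gene of IFN-β, was tested and had 52, 15 and 21 counts in wild-type and 10, 19 and 33 counts in IL-21isoTg mice. In CPM this was 2.35, 0.721 and 0.945 against 0.416, 0.707 and 3.08, highest in IL-21isoTg mouse 3 and then in wild-type mouse 1. These 2 mice also had the most interferon-stimulated genes at least 2-fold up within their genotype, in the reverse order (7 and 14 genes). A link between Ifnb1 and these genes was not tested. The IFN-λ genes Ifnl2 and Ifnl3 had 17, 3 and 4 and 12, 2 and 13 counts in wild-type mice, against 0, 3 and 0 and 0, 0 and 0 counts in IL-21isoTg mice. Both were too low to be tested, and they share 11.1% and 13.9% of their 100-base stretches with other genes, most with each other. Ifng, the gene of IFN-γ, had 0 counts in every mouse, where 3 counts, taken as the limit of detection, correspond to 0.112 to 0.280 CPM. Of the 8 further type I genes Ifna1, Ifna2, Ifna4, Ifna5, Ifna9, Ifna12, Ifnab and Ifnz, Ifna2 and Ifna5 had 1 count each in wild-type mouse 3 and the others had 0. Ifnk and Ifne, the type I genes best known from skin and the reproductive tract, were highest in wild-type mouse 1, Ifnk with 11, 0 and 0 counts in wild-type and 4, 0 and 0 counts in IL-21isoTg mice, and Ifne with 3 counts in wild-type mouse 1 and 0 in the others.

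The 6 receptor genes were all tested. Ifnar2, a chain of the type I receptor, had 16.6, 23.2 and 16.8 CPM in wild-type and 22.6, 25.4 and 31.3 CPM in IL-21isoTg mice, with a log2 fold change of 0.49 ± 0.21 SE (adjusted p = 0.809) and overlapping genotypes. Its partner Ifnar1 had a log2 fold change of 0.02, and the others, Ifngr1, Ifngr2, Ifnlr1 and Il10rb, had -0.19 to 0.46. Cxcl10, a chemokine induced by all interferon types, was 81.1, 13.3 and 30.9 CPM in wild-type and 22.9, 25.9 and 38.3 CPM in IL-21isoTg mice, and wild-type mouse 1 was again the highest. Cxcl9, which depends more on IFN-γ, had 3.11, 1.63 and 1.98 CPM in wild-type and 9.31, 5.14 and 2.33 CPM in IL-21isoTg mice, a log2 fold change of 1.33 ± 0.52 SE (adjusted p = 0.809). Gbp4 had 6.72, 8.46 and 5.22 CPM against 13.7, 13.2 and 7.37 CPM (log2 fold change 0.76 ± 0.31 SE, adjusted p = 0.809). For Cxcl9 and Gbp4 the highest values were those of IL-21isoTg mice 1 and 2. Several marker sums were also highest in these 2 mice. These were the endothelial (259.6 and 196 CPM), adipocyte (199 and 105), macrophage (328 and 371) and T cell sums (42 and 41.7). The basal epithelial (2785 and 2448 CPM) and milk protein sums (20366 and 15762) were too. The macrophage order again came from Cd14. Without Cd14 the other 11 summed to 21.5 and 21.8 CPM, below wild-type mouse 1 (29.1 CPM) and IL-21isoTg mouse 3 (25.1 CPM). Without Thy1 the other 7 T cell markers summed to 11 and 10.8 CPM, beside 10.7 CPM in wild-type mouse 1. The part of any of these in Cxcl9 and Gbp4 was not tested. Genotypes did not overlap in 4 of the 66 genes (6.06%, against 12.1% of all genes), with adjusted p-values of 0.809 to 0.872. Ikbke, a kinase that activates IRF3, had 11.1, 8.84 and 11.7 CPM in wild-type and 12.7, 11.8 and 11.9 CPM in IL-21isoTg mice. Gbp6 had 0.992, 0.961 and 0.855 CPM against 2.12, 1.97 and 1.03 CPM, and it shares 64.5% of its 100-base stretches with other genes. Both were higher in IL-21isoTg mice, while Gbp8 and Epsti1 were lower. Gbp8 had 0.902, 1.35 and 0.765 CPM in wild-type and 0.540, 0.745 and 0.373 CPM in IL-21isoTg mice. Epsti1 had 2.93, 2.26 and 1.93 CPM in wild-type and 1.04, 1.75 and 1.49 CPM in IL-21isoTg mice. Socs3, an inhibitor of cytokine signalling that STAT3 induces, was 167, 697 and 575 CPM in wild-type and 748, 475 and 322 CPM in IL-21isoTg mice, lowest in wild-type mouse 1 and then in IL-21isoTg mouse 3. Socs1, another inhibitor, was highest in wild-type mouse 1, with 11.1, 3.17 and 7.11 CPM against 4.70, 5.58 and 3.26 CPM. Over the 7 tested inhibitor genes wild-type mouse 1 was at a median of 0.704 times the mean of the other wild-type mice.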

How the data were processed

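RNA was sequenced from MECs of 6 mice, 1 library per mouse, after poly(A) selection with a directional kit. The authors deposited raw counts per gene and mouse, which were used here. They also deposited the same counts divided by size factors and a table of their own comparison (log2 fold changes and p-values), neither of which was used. The submitters' processing notes name build mm10, FastQC 0.11.7, Trimmomatic 0.38, HISAT2 2.1.0, SAMtools 1.9, featureCounts 1.6.3 and DESeq2 1.24.0. The annotation and the strand setting are not given in the sources used here, and reads matching several genes may have been dropped.

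Genes were filtered with filterByExpr (minimum count 10, minimum total count 15), normalized with TMM and compared by genotype with the quasi-likelihood test of edgeR 4.0.16 (robust, earlier form of the method) in R 4.3.3. The Benjamini-Hochberg adjustment covered 17165 genes, with calls at an adjusted p under 0.05. The script was tested on simulated data. DESeq2 1.42.0 and limma 3.58.1 served as alternatives, beside other normalizations, other filters, a replicate block and leaving out each mouse. CPM are TMM-scaled, with a prior count of 2 on the log2 scale. The floor of 3 counts covers counting error only.

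Gene positions came from GENCODE M21 (GRCm38) and promoters from RefSeq (GRCm38.p6). Of the list symbols, Tmem173 and Mb21d1 were matched to Sting1 and Cgas. Shared sequence was counted as transcript stretches of 100 bases found in another gene. A listed pathway gene that the totals include is not described here. The 41 genes and all lists were chosen with earlier results of these data known. Values per mouse are given for genes whose genotypes do not overlap, for the smallest p and the highest level per kilobase in each role group, and all other values per mouse, among them those of genes high in wild-type mouse 1, were added after they were seen. Replicate numbers come from the labels. Figures were drawn with matplotlib 3.10.9 in Python 3.11.15.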

Additional observations from a re-analysis of the deposited data

How the results depend on the processing

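Under all 17 alternatives 0 of the 40 interferon-stimulated genes and 0 of the 66 further pathway genes had an adjusted p under 0.05, and the median log2 fold change of the 40 genes stayed within -0.21 to 0.23, both ends reached by leaving out a mouse. Over all genes, DESeq2's Wald test called 72 higher and 9 lower, edgeR's likelihood ratio test 52 higher and 13 lower, and the fit without a filter 14 higher. Leaving out each mouse in turn gave 0 to 6 genes higher (6 without wild-type mouse 3), and 2 to 9 of the 40 genes without overlap in the higher and 1 to 5 in the lower direction. The 9 came from leaving out wild-type mouse 1 (22.5%, against 11.5% of all genes) and the 5 from leaving out IL-21isoTg mouse 3 (12.5%, against 10.5%). The sign turned in at least 1 of the fits without a mouse for 8 of the 16 genes followed through the alternatives. Over all fits that left out 1 mouse, the log2 fold change ranged from -1.53 to 0.54 for Oasl1, -2.09 to 0.27 for Oas3, -1.26 to 0.18 for Ifit1 and -0.83 to 0.10 for Isg15. It ranged from -0.47 to 0.05 for Bst2, -0.32 to 0.03 for Trim25, -0.27 to 0.03 for Dtx3l and -0.18 to 0.06 for Parp9. The cause was not tested. No sign of these 16 genes turned under another normalization, filter or test, except that Oas3 had no value under the filter of 10 counts in every mouse, which removed it. Irf1 stayed at 0.33 to 0.57, and Adar at -0.30 to -0.18.

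Deviations from the group means correlated at -0.22, 0.07 and -0.06 for mice with the same replicate number. For mice with different numbers the correlations were -0.23 to 0.23. With 3 mice per genotype these values cannot decide whether mice with the same number were paired. With the replicate block 0 of the 40 genes were called higher and 0 lower, 0 genes were called over all genes, and the median log2 fold change was -0.03. Genes with 0 or 1 count per mouse, such as Ifng and Oas1a, could not be compared, and the cause of their zeros was not tested.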
